A study of Rattus norvegicus with 16 samples.

Results

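The potassium channel subunits of the rat heart were described here as the genes whose symbol starts with Kcn, which covers the pore-forming alpha subunits and their accessory subunits. Members were the rows of the deposited table whose array annotation gave exactly 1 gene symbol, starting with Kcn, with the brightest row standing for a gene. There were 83 such genes among 14324 genes with a row of their own, and each of the 83 had a single row, so no second row could be compared. A further row names a Kcn gene together with another gene and was left out.

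RNA came from hearts of 16 rat pups, all 2 days old, and each pup had its own Affymetrix Rat Gene 1.0 ST array, with no pooling. HHR, the Hypertrophic Heart Rat, has a heart size given as hypertrophic, and NHR, the Normal Heart Rat, is the control strain. Each strain was represented by 4 females and 4 males. The design text describes ventricles freed of the atria, while a protocol among the labels mentions whole hearts. The sources used here name no litter, dam or batch, and litter cannot be told apart from strain. Strain differences in the sequence under a row's probes were not tested.

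Potassium channels carry the outward currents that end the cardiac action potential and hold the resting potential of heart muscle. Voltage-gated alpha subunits (Kcna, Kcnb, Kcnc, Kcnd, Kcnh and Kcnq) open on depolarisation and repolarise the cell. Inward rectifiers (Kcnj) and two-pore channels (Kcnk) pass current near rest, and accessory subunits (Kcnab, Kcne, Kcnip) and electrically silent subunits (Kcng, Kcns, Kcnv) change how the alpha subunits gate and reach the membrane.

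Of the 83 members, 8 were higher and 8 lower in HHR, and 67 did not pass the test. A call is an adjusted p under 0.05 in limma's moderated test over all 27342 rows, with both sexes averaged. These 16 calls are 19.3% of the members, beside 20.7% of all rows (9.64% higher, 11% lower). Taking each gene by its brightest row, as for the members, 23.1% of all genes passed (11.8% higher, 11.2% lower). The family as a whole thus did not differ between the strains more often than the rest of the table. All differences below are log2 differences, HHR minus NHR. The median difference was -0.03 over the members and -0.03 over all rows. The strains did not overlap for 3 members, Kcne5, Kcnj5 and Kcnt2, and for 4.15% of all rows. The largest rise was in Kcne5 and the largest fitted fall in Kcnt2, whose HHR signal was dim, and both acetylcholine-gated channel genes, Kcnj3 and Kcnj5, were higher. Kcna, Kcne, Kcng, Kcnj and Kcnk each held 2 called members, and within each of these subfamilies both moved the same way.

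**Figure D1:**
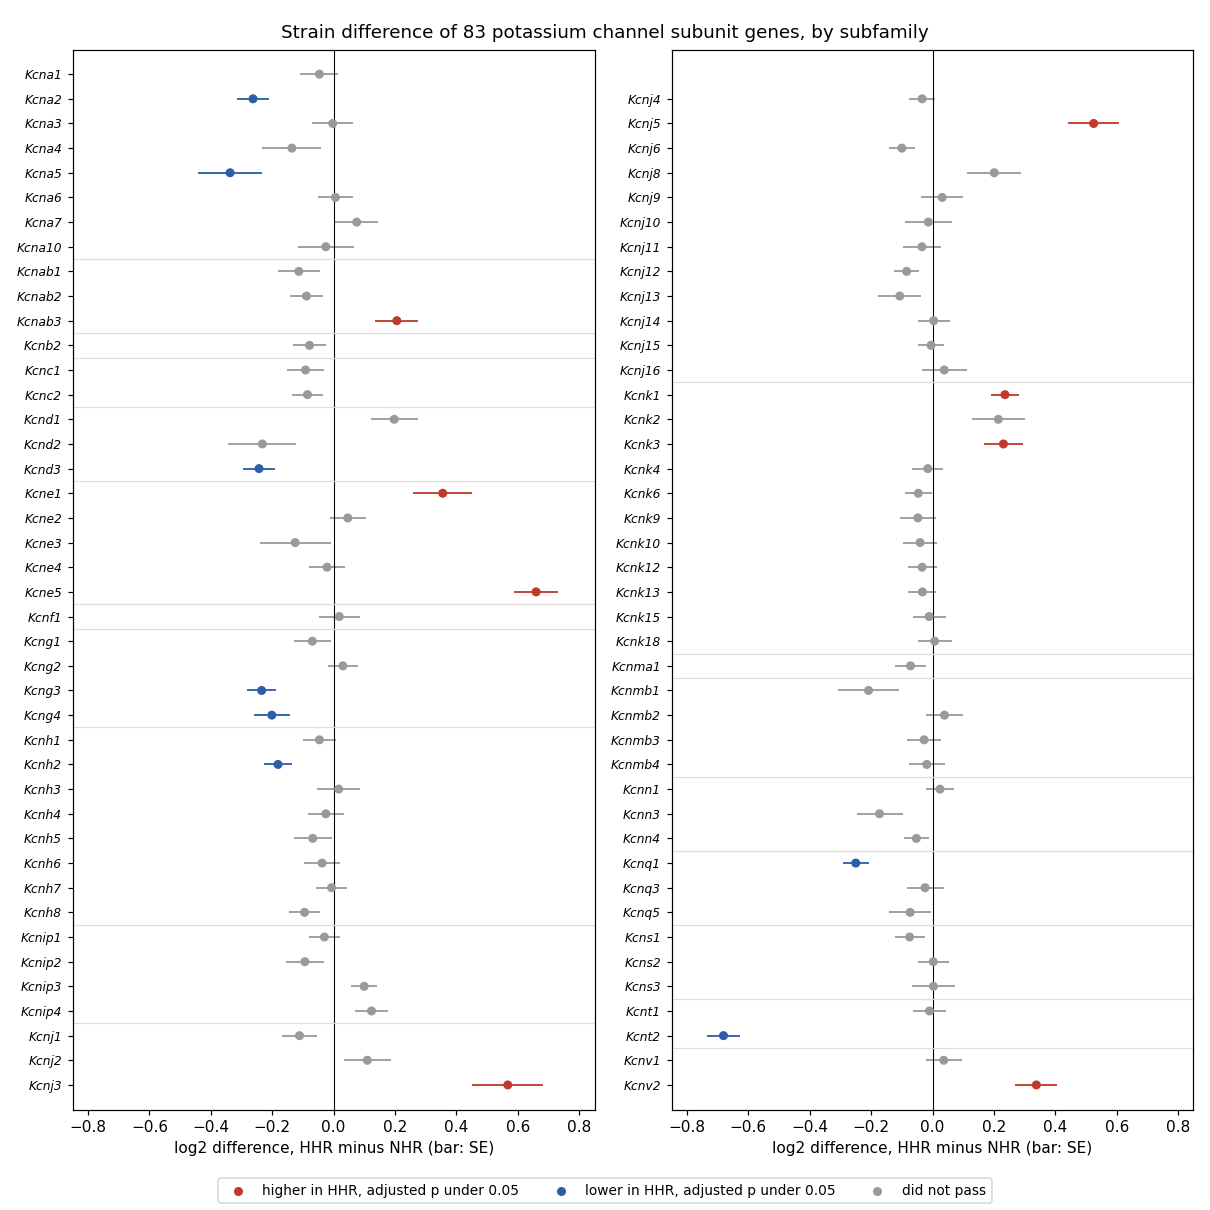
The log2 difference (HHR minus NHR, horizontal axis) of each of the 83 members, grouped by subfamily, with the model's standard error as a bar; colour marks the 8 higher, 8 lower and 67 uncalled genes. Most genes sit close to 0, with Kcne5, Kcnj3 and Kcnj5 far to the right and Kcnt2, dim in HHR, far to the left.

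Row signal averaged over the 16 arrays ran from 4.24 for Kcnip1 to 10.60 for Kcnq1 on the log2 scale; probes differ between rows, so this is no order of RNA amounts. The table records no background level. As a yardstick of dim signal, 95% of 59 rows of olfactory receptor genes (symbols starting with Olr) lay below 6.21. By this measure of row brightness 57 members lay above that level and 26 did not. Kcnt2 was among the 57 only through its NHR arrays, so the level says nothing of its signal in HHR. The 26 dim members had differences between -0.11 and 0.12. A member that is dim in both strains cannot be told from one without signal.

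The promoters of 4 of the genes described below are shown because these genes carry the main differences and have an entry in the RefSeq table (58 of 83 members do). Each run is the 250 bases before the annotated start on assembly GRCr8, read 5′ to 3′ on the gene's strand. Capitals mark matches, on either strand, to 4 short motifs. The TATA box was searched as the letters TATAAA. The GC box was searched as GGGCGG, the motif of GATA factors as AGATAA and that of T-box factors as GGTGTGA. The motifs do not overlap in the windows shown. The Kcnj5 window lies at chr8:39011097-39011346 on the minus strand, that of Kcne5 at chrX:110727850-110728099 on the minus strand, that of Kcne1 at chr11:45077034-45077283 on the minus strand and that of Kcnt2 at chr13:54215057-54215306 on the plus strand.
Kcnj5: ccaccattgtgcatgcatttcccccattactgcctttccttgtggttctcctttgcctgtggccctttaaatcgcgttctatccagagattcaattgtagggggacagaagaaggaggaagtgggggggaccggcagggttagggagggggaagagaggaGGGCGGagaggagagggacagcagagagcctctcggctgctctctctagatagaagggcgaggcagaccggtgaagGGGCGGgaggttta
Kcne5: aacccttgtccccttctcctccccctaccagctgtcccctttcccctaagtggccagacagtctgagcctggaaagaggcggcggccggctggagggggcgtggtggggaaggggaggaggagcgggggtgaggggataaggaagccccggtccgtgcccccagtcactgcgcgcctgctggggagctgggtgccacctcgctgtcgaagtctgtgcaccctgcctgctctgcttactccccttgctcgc
Kcne1: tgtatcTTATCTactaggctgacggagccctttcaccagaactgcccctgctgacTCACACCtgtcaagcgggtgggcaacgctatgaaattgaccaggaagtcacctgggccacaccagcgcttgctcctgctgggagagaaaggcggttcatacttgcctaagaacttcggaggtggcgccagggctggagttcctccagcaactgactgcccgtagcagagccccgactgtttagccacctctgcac
Kcnt2: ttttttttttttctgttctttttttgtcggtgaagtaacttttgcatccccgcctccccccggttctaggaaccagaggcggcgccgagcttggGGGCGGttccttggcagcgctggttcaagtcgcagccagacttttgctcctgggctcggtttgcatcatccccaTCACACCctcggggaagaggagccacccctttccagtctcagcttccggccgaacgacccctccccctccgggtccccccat

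The Kcnj5 window held 2 GC boxes, the Kcne1 window 1 GATA and 1 T-box match, the Kcnt2 window 1 GC box and 1 T-box match, and the Kcne5 window no match to these letters. Among all 33469 promoters of the table, 30.5% held a GC box, 10.3% a GATA match, 3.22% a T-box match and 12.9% a TATA box. Among the 58 member promoters the shares were 48.3%, 12.1%, 3.45% and 3.45%. Members were counted with 1 promoter per gene, while the 33469 were not limited to 1 per gene or to genes measured here. Member promoters were richer in G and C, with a median of 59.6% against 51.2% over all. A match describes letters only and was not tied to any factor in these samples.

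Kcne5 encodes a small accessory subunit that restrains channels built from Kcnq1. Its level was 9.08, 9.01, 8.91 and 8.86 in the HHR females and 8.92, 9.06, 8.94 and 8.95 in the HHR males. In NHR it was 8.63, 8.17, 8.10 and 8.35 in the females and 8.32, 8.48, 8.31 and 8.10 in the males. Every one of the 8 HHR values exceeded every NHR value, which held for 1.95% of all rows. HHR averaged 8.97 ± 0.08 (SD, n = 8) and NHR 8.31 ± 0.19. HHR was thus 1.58-fold higher, a log2 difference of 0.66 (SE 0.07) with a limma adjusted p = 1.13e-05.

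Kcnq1 is the alpha subunit of the slow delayed rectifier, and Kcne1 is the accessory subunit that slows its opening. Kcnq1 ranged from 10.39 to 10.59 in HHR (median 10.47) and from 10.59 to 10.90 in NHR (median 10.75). It was lower in HHR (difference -0.25, SE 0.04, limma adjusted p = 5.70e-04), and 7 of the 8 HHR values fell under the NHR minimum. Kcne1 was higher: it ranged from 7.02 to 7.62 in HHR (median 7.14) and from 6.57 to 7.21 in NHR (median 6.87). Its difference was 0.36 (SE 0.10, adjusted p = 0.0150), and 3 of 8 HHR values exceeded the NHR maximum. The alpha subunit and 2 of its accessory partners thus had differences of opposite sign. Of the other Kcne genes, Kcne2 (0.05, adjusted p = 0.633), Kcne3 (-0.13, adjusted p = 0.488) and Kcne4 (-0.02, adjusted p = 0.838) did not pass, and neither did Kcnq3 or Kcnq5, whose products form the M current of neurons.

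Both genes of the acetylcholine-gated channel were higher in HHR. Kcnj3 and Kcnj5 encode inward rectifier subunits that assemble into the channel opened by G protein beta-gamma dimers when the vagus nerve slows the heart, and both are known to be more abundant in atrial than in ventricular muscle. Kcnj3 was 9.76, 10.75, 10.41 and 10.22 in the HHR females, 10.24, 10.51, 10.48 and 10.09 in the HHR males, 9.89, 9.51, 9.82 and 9.66 in the NHR females, and 9.74, 10.02, 9.78 and 9.49 in the NHR males. All but HHR female 1 exceeded the NHR maximum. The difference was 0.57 (SE 0.12, limma adjusted p = 0.00227), or 1.48-fold.

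Kcnj5 was 9.81, 9.89, 9.69 and 9.91 in the HHR females and 9.94, 10.01, 9.72 and 9.89 in the HHR males. In NHR it was 9.56, 9.37, 9.04 and 9.08 in the females and 9.48, 9.67, 9.30 and 9.15 in the males. No HHR array reached down to the NHR arrays. Kcnj5 differed by 0.52 (SE 0.08, limma adjusted p = 3.63e-04), or 1.44-fold. Within a strain the 2 genes were not seen to follow each other: over 8 HHR arrays Pearson's r was 0.04 (exact permutation p = 0.935) and Spearman's rho 0.05 (exact p = 0.935), and r was -0.29 without the 2 arrays farthest from the Kcnj3 median. Over 8 NHR arrays r was 0.55 (exact permutation p = 0.158) and rho 0.48 (exact p = 0.243), with r of 0.15 after the same step. These are 2 of 6 relations computed, with adjusted p of 0.330 or more, all two-sided.

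The genes around this channel were looked at through a list of 14, of which 13 were measured: 7 were higher in HHR, 1 was lower and 5 did not pass. Among all genes, each by its brightest row, 11.8% were higher and 11.2% lower. The median over the 13 genes was 0.19, against -0.02 over all genes. Chrm2, the muscarinic receptor of heart muscle, was 12.24 ± 0.08 (SD, n = 8) in HHR and 11.96 ± 0.08 in NHR, with all 8 HHR arrays above the NHR arrays (difference 0.28, SE 0.04, limma adjusted p = 3.78e-04). Gnb5, the G protein beta subunit that partners one class of RGS proteins, was higher by 0.43 (SE 0.07, adjusted p = 4.94e-04) and Rgs2, a regulator of G protein signalling, by 0.43 (SE 0.07, adjusted p = 3.17e-04). The inhibitory alpha subunits Gnai1 (0.38) and Gnai3 (0.21), Rgs4 (0.21), which speeds the closing of the channel, and the adenosine receptor Adora1 (0.19) were also higher. Gnb2, another beta subunit, was lower (-0.15, adjusted p = 0.0102). Gnai2 and Gnao1, whose products are other inhibitory G protein alpha subunits, differed by 0.08 and 0.05 and did not pass. The beta subunit Gnb1 did not pass either (-0.09, adjusted p = 0.123). Gnb1 and Gnb2 were the 2 of 13 genes with a negative difference.

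**Figure D2:**
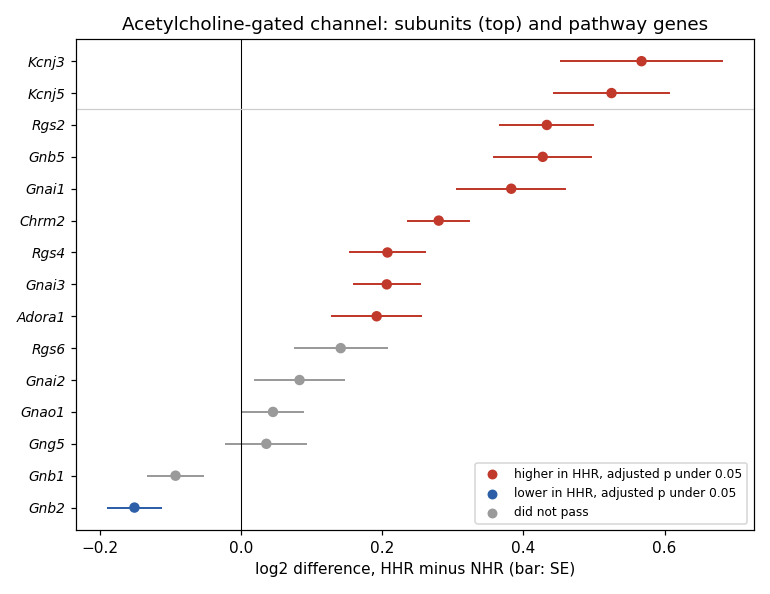
The log2 difference (HHR minus NHR, horizontal axis) with its standard error for Kcnj3 and Kcnj5, above the line, and for the 13 measured genes of the acetylcholine-gated channel pathway below it. Of the 13, 7 are higher and 1 is lower in HHR; Gnb2 is the lower one.

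Some markers of atrial muscle were also higher in HHR. Of 8 measured atrial markers (10 listed) 4 were higher and 0 lower, with a median of 0.28, and 4 did not pass. Over all genes, 11.8% were higher and 11.2% lower. Bmp10 was higher by 1.05, Stard10 by 0.66, Nppa by 0.34 and Dkk3 by 0.21, while Sln (0.34, adjusted p = 0.540) and Myl7 (0.07, adjusted p = 0.565), both abundant in atria, did not pass. Nr2f1 (-0.08, adjusted p = 0.297) and Nr2f2 (-0.02, adjusted p = 0.796), transcription factors of atrial identity, did not pass either and had the opposite sign. In females Bmp10 (1.75, limma adjusted p = 4.56e-06), Nppa (0.52) and Stard10 (1.00) passed. In males none of the 8 markers passed: Bmp10 differed by 0.36 (limma adjusted p = 0.213), Nppa by 0.16 (adjusted p = 0.236), Stard10 by 0.32 (adjusted p = 0.519) and Dkk3 by 0.23 (adjusted p = 0.222). A pass in females and none in males is no test of a difference between the sexes. For Bmp10 that test did not pass (interaction -1.38, limma adjusted p = 0.243). Among males Kcnj5 differed by 0.49 (limma adjusted p = 0.0277) and Kcnj3 by 0.57 (adjusted p = 0.0576). The mean level of the 8 markers ran from 9.73 to 10.46 in HHR and from 9.37 to 9.94 in NHR, and the ranges overlap. All 8 lay above the olfactory receptor level on every array, with the lowest value, 6.34, for Bmp10 in NHR. Bmp10 averaged 6.65 in the NHR females, not far above that level. The size of the Bmp10 difference, in females and over both sexes, is therefore uncertain. The array with the highest marker mean, HHR female 2, also had the highest Kcnj3 level. Without it Kcnj3 differed by 0.49 (limma adjusted p = 0.00393) and Kcnj5 by 0.51 (adjusted p = 0.00107). Within HHR, Pearson's r of the marker mean was 0.53 with Kcnj3 (exact permutation p = 0.193; rho 0.24, exact p = 0.582) and 0.10 with Kcnj5 (exact permutation p = 0.821; rho -0.21, exact p = 0.619). Within NHR it was 0.49 (exact permutation p = 0.220; rho 0.33, exact p = 0.428) and 0.52 (exact permutation p = 0.187; rho 0.43, exact p = 0.299). Without the 2 arrays farthest from the marker median r became 0.26 and -0.22 in HHR and 0.70 and 0.75 in NHR. The part of atrial tissue in the Kcnj3 and Kcnj5 differences was not tested. In whole tissue, fewer cells of a type and less RNA per cell cannot be told apart.

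The other inward rectifiers of heart muscle did not pass. Kcnj2 and Kcnj12 carry the classical inward rectifier that sets the resting potential. Kcnj2 ranged from 8.72 to 9.46 in HHR (median 9.05) and from 8.65 to 9.22 in NHR (median 8.98), with a difference of 0.11 (95% interval -0.05 to 0.27, limma adjusted p = 0.331). Kcnj12 differed by -0.08 (95% interval -0.17 to 0.00, adjusted p = 0.157), Kcnj4 by -0.03 (adjusted p = 0.622) and Kcnj14 by 0.00 (adjusted p = 0.973). Kcnj11 and Kcnj8 form the pores of ATP-sensitive channels, the former typical of heart muscle and the latter of vascular muscle. Kcnj11 differed by -0.03 (95% interval -0.17 to 0.10, adjusted p = 0.749). Kcnj8 differed by 0.20 (95% interval 0.02 to 0.38, adjusted p = 0.115) and passed without NHR female 1 (0.26, adjusted p = 0.0293). Without the 3 NHR arrays apart (females 3 and 4 and male 4, described further on) it was 0.07 (adjusted p = 0.593). Of the sulfonylurea receptors that complete these channels, Abcc8 was lower (-0.14, SE 0.05, adjusted p = 0.0423) and Abcc9 did not pass (0.16, adjusted p = 0.133). Over all 15 Kcnj genes 2 were higher and 0 lower, with a median of -0.01.

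The transient outward current, which drives early repolarisation in rat heart, is carried by Kcnd2, Kcnd3 and Kcna4. Kcnip2 is the accessory subunit of the Kcnd channels. Kcnd3 was lower in HHR: it ranged from 7.11 to 7.43 in HHR (median 7.31) and from 7.33 to 7.64 in NHR (median 7.56), a difference of -0.24 (SE 0.05, limma adjusted p = 0.00381). The ranges overlap, and 4 of 8 HHR values fell under the NHR minimum. Kcnd2 had a difference of similar size but a wider spread, -0.23 (SE 0.11, 95% interval -0.47 to 0.00, adjusted p = 0.153). Kcna4 differed by -0.14 (adjusted p = 0.347), and by -0.22 without HHR female 4 (adjusted p = 0.0389). Kcnd1 differed by 0.20 (adjusted p = 0.0782), and by 0.24 without NHR female 3 (adjusted p = 0.0254). It also passed after quantile normalization (adjusted p = 0.0346), median centring (0.0440), cyclic loess (0.0320) or with array weights (0.0488). Kcnip2 ranged from 9.14 to 9.36 in HHR (median 9.23) and from 9.15 to 9.68 in NHR (median 9.33), a difference of -0.09 (95% interval -0.23 to 0.04, adjusted p = 0.320). Without NHR female 1, whose level was the highest, it was -0.03 (adjusted p = 0.607), and it was -0.17 (adjusted p = 0.0949) with the 3 NHR arrays named above left out. The other 3 Kcnip genes did not pass. Of 9 listed partners of this current, Kcnip genes included, 1 was higher and 0 were lower. Over all genes, 11.8% were higher and 11.2% lower. The higher partner, Irx5, a transcription factor known to repress Kcnd2, differed by 0.18 (SE 0.05, adjusted p = 0.0195).

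**Figure D3:**
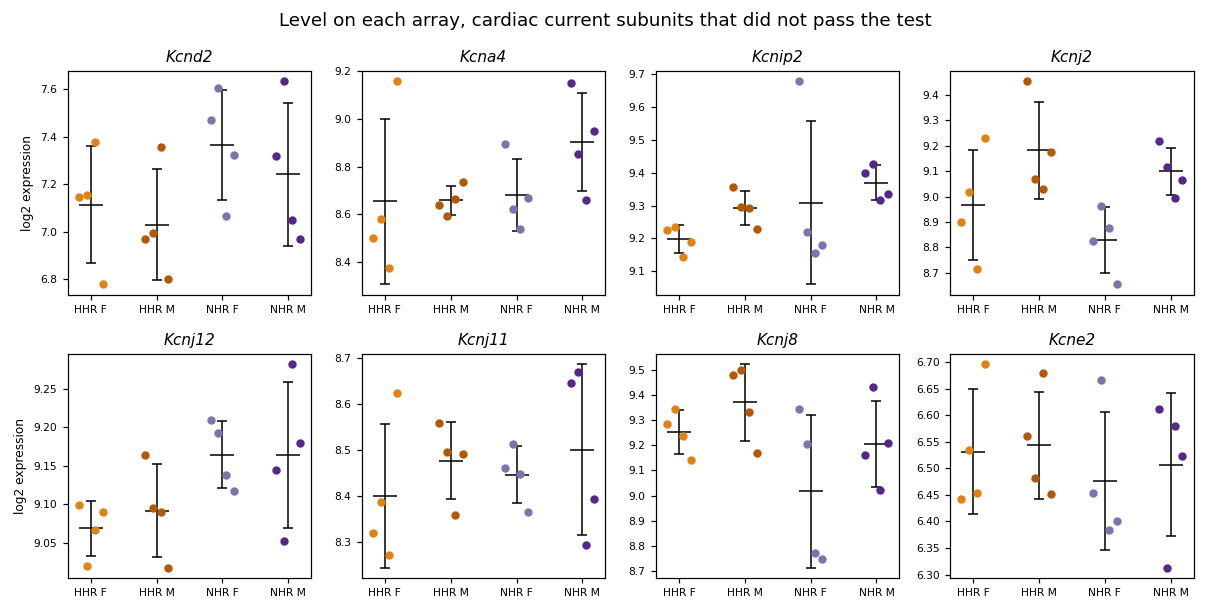
Level on each array (log2 expression, vertical axis) of 8 cardiac current subunits that did not pass the test, by group (F females, M males; 4 arrays each), with the group mean and SD. The HHR and NHR points overlap in all 8 panels, and single arrays lie far from their group, such as NHR female 1 for Kcnip2 at 9.68.

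Delayed rectifier alpha subunits were lower in HHR where they passed. Kcnh2, the pore of the rapid delayed rectifier, ranged from 9.62 to 9.81 in HHR (median 9.73) and from 9.74 to 10.05 in NHR (median 9.92). It differed by -0.18 (SE 0.05, limma adjusted p = 0.0106), with 4 of 8 HHR values under the NHR minimum. Kcna2, a subunit of sustained currents, ranged from 6.93 to 7.24 in HHR (median 7.09) and from 7.21 to 7.51 in NHR (median 7.33), a difference of -0.26 (SE 0.05, adjusted p = 0.00189). Only 1 HHR array reached the NHR range for Kcna2. Kcnc1, Kcnab1 and Kcnab2, also linked to sustained currents, differed by -0.09, -0.11 and -0.09 and did not pass. Kcna7, a dim row listed with them, had the other sign (0.08, adjusted p = 0.492) and did not pass. Of 12 measured scaffolds and chaperones of these channels (14 listed) 3 were lower and 0 higher, with a median of -0.01. Over all genes, 11.2% were lower and 11.8% higher, and the median was -0.02. Akap9, which anchors kinase to the Kcnq1 channel, differed by -0.21 (SE 0.04, adjusted p = 0.00241), and the ankyrins Ank3 (-0.20) and Ank2 (-0.18) passed as well.

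Kcna5, the ultrarapid delayed rectifier subunit, was lower in HHR but less firmly. It ranged from 6.40 to 7.17 in HHR (median 6.74) and from 6.87 to 7.45 in NHR (median 6.995), with 6 of 8 HHR values under the NHR minimum (difference -0.34, SE 0.11, limma adjusted p = 0.0302). Its sign was opposite to that of Kcnj3 and Kcnj5. Leaving out 1 array ended the call for 7 arrays. The difference was then -0.29 without HHR female 1 (adjusted p = 0.0676), -0.31 without HHR female 4 (0.0614), -0.32 without HHR male 1 (0.0593) and -0.30 without HHR male 2 (0.0667), NHR female 3 (0.0625), NHR male 3 (0.0667) or NHR male 4 (0.0603).

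Kcnt2 encodes a sodium-activated potassium channel subunit, and it had the largest fitted fall of any member. Its level was 5.99, 6.11, 5.998 and 5.91 in the HHR females and 5.72, 5.90, 5.78 and 6.03 in the HHR males. The NHR females were at 6.65, 6.65, 6.87 and 6.80 and the NHR males at 6.38, 6.53, 6.60 and 6.40. Every one of the 8 HHR values was under the NHR minimum, which held for 2.20% of all rows. The difference was -0.68 (SE 0.06, limma adjusted p = 3.89e-07), and no fold is given here. Every HHR array lay below the olfactory receptor level of 6.21 and every NHR array above it, so the HHR values are those of a dim row and the size of the difference is uncertain. Its relative Kcnt1 (-0.01, adjusted p = 0.922) did not pass and lay at 5.82.

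Silent and accessory subunits of voltage-gated channels differed in both directions. Kcnv2, a silent subunit that changes the gating of Kcnb channels, ranged from 6.49 to 6.89 in HHR (median 6.61) and from 6.08 to 6.54 in NHR (median 6.28). It was higher by 0.34 (SE 0.07, limma adjusted p = 0.00225), with 5 of 8 HHR values over the NHR maximum. In NHR its signal was dim, averaging 6.30, with males 2 (6.08) and 3 (6.18) below the olfactory receptor level of 6.21. The size of the Kcnv2 difference is therefore uncertain. Kcng3 and Kcng4 belong to another silent subfamily that joins Kcnb subunits, and both were lower, by -0.23 (SE 0.05, adjusted p = 0.00249) and -0.20 (SE 0.06, adjusted p = 0.0220). Kcng2 differed by 0.03 (95% interval -0.07 to 0.13, adjusted p = 0.706), and Kcng1 by -0.07.

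Kcnab3, a cytoplasmic beta subunit of Kcna channels, was higher by 0.21 (SE 0.07, limma adjusted p = 0.0467), the weakest of the 16 calls. It ranged from 6.69 to 7.21 in HHR (median 6.90) and from 6.58 to 6.95 in NHR (median 6.72), and the groups overlap. Leaving out any of 12 arrays ended its call: HHR female 1, 2 or 4, HHR male 1, 2 or 4, NHR female 1, 2 or 4, or NHR male 1, 2 or 3. The difference then lay between 0.16 and 0.22 and the adjusted p between 0.0561 and 0.0988.

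Of 11 two-pore channel genes, which carry background current, 2 were higher and 0 lower. Kcnk1 ranged from 6.60 to 6.87 in HHR (median 6.82) and from 6.48 to 6.66 in NHR (median 6.55), with 7 of 8 HHR values over the NHR maximum (difference 0.24, SE 0.05, limma adjusted p = 0.00162). Kcnk3, an acid-sensitive channel of heart muscle, ranged from 9.41 to 9.64 in HHR (median 9.48) and from 9.005 to 9.50 in NHR (median 9.31). Its difference was 0.23 (SE 0.06, adjusted p = 0.0166), with 3 of 8 HHR values over the NHR maximum. Kcnk2, a stretch-sensitive channel, had a difference of 0.21 (adjusted p = 0.0924). It passed without HHR male 4 (0.26, adjusted p = 0.0475) or NHR male 2 (0.26, adjusted p = 0.0397), and its difference was 0.10 (adjusted p = 0.456) with the same 3 NHR arrays left out. Kcnk4 and Kcnk6 differed by -0.02 and -0.05 and did not pass.

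The 5 measured calcium-activated channel genes of the list, Kcnma1, Kcnmb1, Kcnn1, Kcnn3 and Kcnn4, held no call for strain. Kcnmb1, the smooth muscle beta subunit of the large-conductance channel, differed by -0.21 (limma adjusted p = 0.157), and by -0.28 without NHR male 4 (adjusted p = 0.0341) or with array weights (adjusted p = 0.0371). Kcnn3, a small-conductance channel subunit, differed by -0.17 (adjusted p = 0.115), by -0.23 without NHR male 4 (adjusted p = 0.0140) and by -0.20 with array weights (adjusted p = 0.0252).

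**Figure D4:**
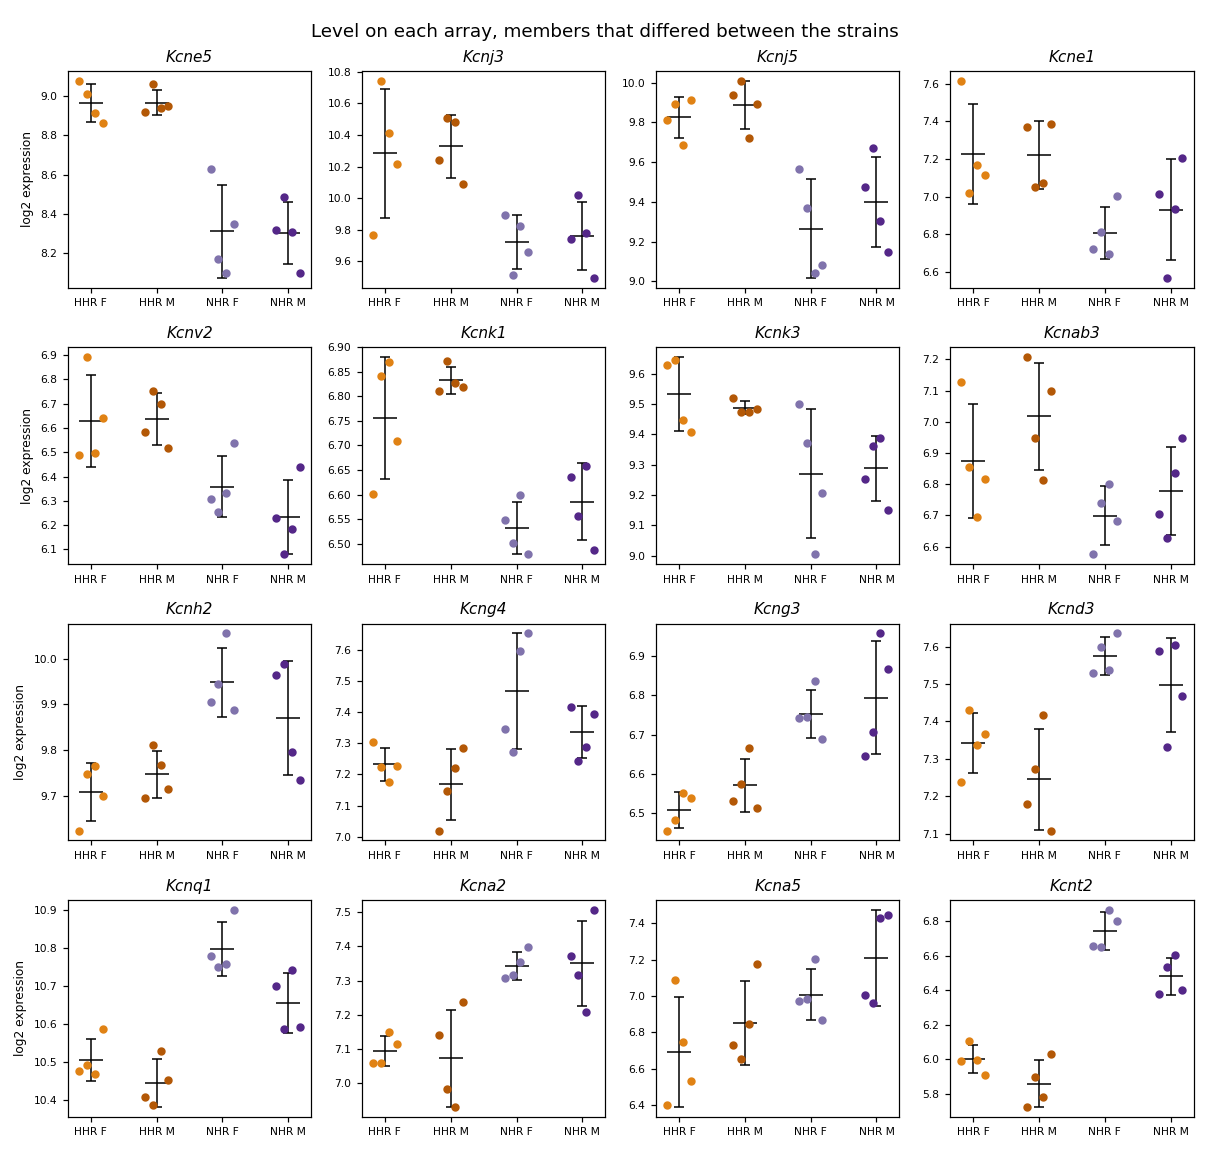
Level on each array (log2 expression, vertical axis, scaled per gene) of the 16 members that passed, by group (F females, M males; 4 arrays each), with the group mean and SD. The strains do not overlap for Kcne5, Kcnj5 and Kcnt2, and overlap in the other panels.

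The strains were also compared within each sex. In females 10 members passed, 4 higher and 6 lower in HHR (12% of members and 12% of all rows, 5.78% higher and 6.21% lower), and in males 6 passed, 4 higher and 2 lower (7.23% of members, against 4.02% of all rows, 2.03% higher and 1.98% lower). Kcna2, Kcne5, Kcnj5, Kcnk1 and Kcnt2 passed in both. The 16 genes called over both sexes all had the same sign in females and males. The strain effect itself differed between the sexes for 0 members (limma interaction, 0% of all rows called). At an unadjusted p under 0.05 there was 1 member of the 83, against 5.08% of all rows. This member, Kcnn3, is named after its values were seen. It differed by -0.38 in females (SE 0.11, adjusted p = 0.0260) and by 0.04 in males (interaction 0.42, unadjusted p = 0.0126, adjusted p = 0.969).

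These within-sex counts rest on few arrays. The count in females was 6 without HHR female 2, HHR female 4, NHR female 3 or NHR female 4. The count in males was 2 without HHR male 1 or HHR male 2, 3 without NHR male 3 or NHR male 4, and 10 without NHR male 2. Males against females, averaged over the strains, gave 0 limma calls among the members (0.011% of all rows, 0.00366% higher and 0.00731% lower in males). There were 4 members of the 83 at an unadjusted p under 0.05, against 6.4% of all rows. The lowest adjusted p was 0.672, for Kcnt2.

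**Figure D5:**
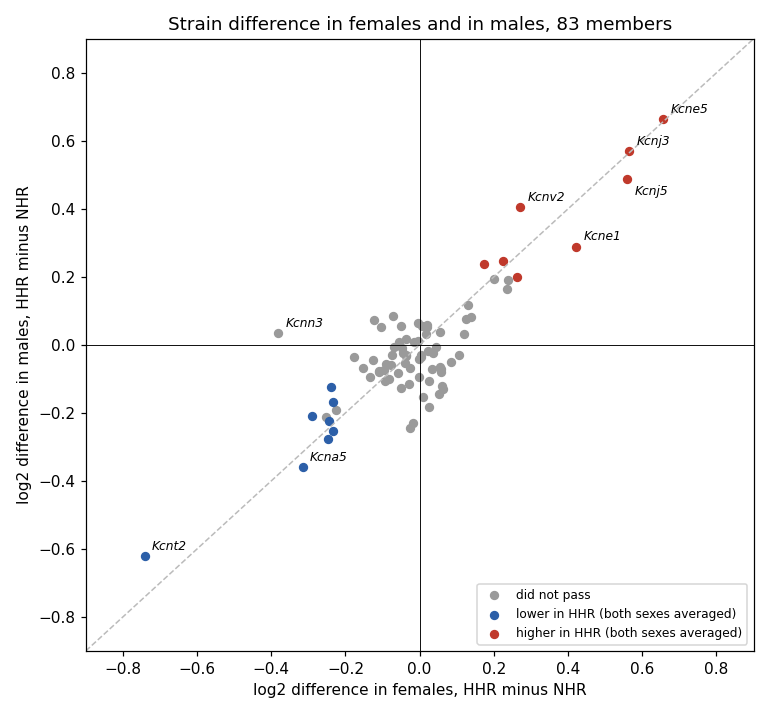
Each member's log2 strain difference (HHR minus NHR) in females (horizontal axis) against that in males (vertical axis), with the line of equal values dashed. The 16 called genes have the same sign on both axes, and Kcnn3 lies off the line at -0.38 in females and 0.04 in males.

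Earlier results of these data set 3 NHR arrays (females 3 and 4 and male 4) apart from the other NHR arrays. Without them 13 of the 16 calls remained and 17 members passed in all. Kcna5 (-0.28, limma adjusted p = 0.133), Kcng4 (-0.11, adjusted p = 0.182) and Kcnk3 (0.13, adjusted p = 0.129) were lost. Kcnd1 (0.26, adjusted p = 0.0406), Kcnd2 (-0.36, adjusted p = 0.0492), Kcnmb1 (-0.35, adjusted p = 0.0206) and Kcnn3 (-0.25, adjusted p = 0.00875) passed instead. Kcnj8 (0.07) and Kcnk2 (0.10) did not pass. Kcnj5 then differed by 0.38 (adjusted p = 0.00283), Kcnj3 by 0.53 (adjusted p = 0.0171), Kcne5 by 0.58 (adjusted p = 1.60e-04) and Kcnt2 by -0.65 (adjusted p = 1.26e-05).

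Cell markers other than the atrial ones were compared as well, and their part in the Kcn differences was not tested. The counts below stand beside 11.8% higher and 11.2% lower among all genes, each by its brightest row. Of 12 cardiomyocyte markers 7 were lower and 0 higher (median -0.14), among them Mybpc3 (-0.25) and Ttn (-0.24), and every one had high signal, so heart muscle was present in all samples. Their mean level ran from 13.25 to 13.36 in HHR and from 13.34 to 13.45 in NHR. Of 8 conduction and pacemaker markers 2 were lower and 0 higher, Cacna1g (-0.29) and Tbx3 (-0.22), with means from 7.51 to 7.70 and from 7.57 to 7.74. Pericyte and smooth muscle markers gave 2 higher (Tagln and Notch3) and 2 lower (Vtn and Myh11) of 10, with means from 10.10 to 10.26 and from 10.11 to 10.27. Of 8 endothelial markers 5 were lower, Cldn5 (-0.41) and Tie1 (-0.22) among them, and 1 higher, with means from 10.28 to 10.39 and from 10.38 to 10.51. Of 10 fibroblast markers 4 were higher, led by Col1a2 (0.19) and Tcf21 (0.37), and 0 lower, with means from 10.51 to 10.81 and from 10.35 to 10.62. Leukocyte markers gave 1 higher (C1qb) and 2 lower (Coro1a and Ptprc) of 12, with means from 7.11 to 7.44 and from 7.13 to 7.45. Neuron and glia markers gave 2 higher (Ret and Uchl1) and 0 lower of 11, with means from 6.42 to 6.51 and from 6.37 to 6.53.

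Position along the genome was described through gene order in RefSeq assembly GRCr8, taking the 5 nearest measured genes on each side of a member. Around the 16 called members 38 of 160 neighbours were called for strain (23.8%), around the other members 163 of 665 (24.5%), and over all genes 23.1%. Kcnt2 had 2 called neighbours, both higher in HHR while Kcnt2 was lower, and Kcnj5 had 2, both lower while Kcnj5 was higher. Paralogs side by side did not share a call: Kcna2 passed while its neighbours Kcna3 (0.00) and Kcna10 (-0.03) did not, Kcna5 passed while Kcna1 (-0.05) and Kcna6 (0.01) did not, and Kcne1 passed while Kcne2 did not.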

How the data were processed

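The deposited table gives log2 expression per probe set. RMA, which corrects background, normalizes between arrays and summarises probes, is named in the submitters' processing notes, as is limma. Their versions and any filters are not stated in those notes. It held 27342 rows on 16 arrays, with medians from 7.19 to 7.28. Row names came from the platform annotation (15097 rows with 1 symbol, 323 with several, 11922 unnamed here), and all 83 members matched RefSeq by gene ID.

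From these values a mean per group was fitted with limma 3.58.1 in R 4.3.3 to all 16 arrays, with empirical Bayes moderation. P-values were adjusted by Benjamini and Hochberg over all rows, and the code was checked on simulated data. There were 5 comparisons: strain, strain within females and within males, their interaction, and sex. Errors beside differences are moderated standard errors (SE). The limma p-values test a mean difference against the moderated spread between animals within groups, taking pups as independent. Spread between litters was not measured. The number of arrays limits the precision. Replicate numbers were not used to pair the arrays in this fit. The correlation of same-numbered arrays' deviations exceeded 0.1 in 2 of 8 pairs, males 2 (0.20) and males 4 (0.30). HHR males 1, 2 and 4 correlated best with the NHR male of the same number, and no HHR female did so. Pairing among the males could therefore not be excluded.

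Members, gene lists (atrial, conduction, cardiomyocyte, pericyte, endothelial, leukocyte, neuron and fibroblast markers, and partners of the transient outward, ATP-sensitive, acetylcholine-gated and delayed rectifier channels) and the arrays set apart were chosen with earlier results of these data known. The text names every called member, every member of 9 lists of cardiac currents, and up to 2 genes per other list with the smallest adjusted p; other genes named were chosen after their values were seen. Lists are described by counts and medians, with no list test. Alternatives covered normalization, dim-row filters, rows tested, moderation, weights, a replicate block, a stricter threshold and leaving out arrays.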

Additional observations from a re-analysis of the deposited data

Results flagged for a closer look

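Within the 156 groups of 4 arrays formed by the 39 members that passed for strain or belong to a cardiac current list, 3 held an array that stood far from the other 3, and chance alone marks about 1 group in 20. Kcnip2 was 9.68 in NHR female 1, against 9.15 to 9.22 in the other NHR females. Kcna7, a dim row, was 6.13 in NHR female 1, against 6.04 to 6.05 in the other NHR females, and 6.35 in NHR male 3, against 6.04 to 6.09 in the other NHR males. Neither gene passed for strain under any alternative run.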

How the results depend on the processing

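The count of 16 members called for strain lay between 14 and 17 when 1 array was left out and was 10 at an adjusted p under 0.01; the other alternatives gave 16 to 19. Of the 16 genes, 12 passed at 0.05 in all 28 alternatives run for each, which do not include the stricter threshold. No sign changed, and Kcna5, Kcnab3, Kcng4 and Kcnk3 lost the call at least once. At a limma adjusted p under 0.01 these genes did not pass, and neither did Kcne1 (0.0150) and Kcnh2 (0.0106). Among the 12, Kcnt2 and Kcnv2 met the dim-row filter of 4 arrays above 6.57 only through arrays of the strain where they are higher. Kcng3 and Kcnk1 had arrays above 6.57 in both strains, but fewer than 4 in the strain where they are lower. Of the 23 uncalled members of the cardiac current lists, 16 passed in no alternative and 7 passed in at least 1. With 10 calls in females, the count was 6 to 12 without 1 array, 4 without the 3 NHR arrays apart and 4 at an adjusted p under 0.01. With 6 calls in males, it was 2 to 10 without 1 array and 2 at an adjusted p under 0.01. The interaction and sex gave 0 members in every alternative run. Causes of these changes were not tested. With the replicate number as a block, which pairs arrays only by number, 17 members passed for strain, 15 of them among the 16; Kcnab3 did not pass (adjusted p = 0.0501), and Kcnj8 (adjusted p = 0.0332) and Kcnk2 (adjusted p = 0.0415) did. The block gave 12 members in females and 8 in males. No background signal was recorded, so changes in the 26 dimmest members could not be seen if levels lay below the array's range.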
